A study of Arabidopsis thaliana with 12 samples.

Results

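LHCB4.2 (AT3G08940) and LHCB4.3 (AT2G40100) are nuclear Arabidopsis thaliana genes for CP29, an antenna protein of photosystem II. They are 2 of the 13356 genes tested, each with a single probe set (258993_at and 265722_at), and they were chosen by their measured differences between the groups of these same arrays, in which one was lower and the other higher at low calcium. Their levels and differences are therefore given as a description, with no test. RNA of whole shoots, taken when seedlings were 14 days old, was measured on 12 Affymetrix arrays after biotin labelling. The 4 groups of 3 biological replicates were lcs7 on 0.3 mM calcium, Col-0 on 0.3 mM calcium, lcs7 on 2 mM calcium and Col-0 on 2 mM calcium. lcs7 is an avp1 mutant in the Col-0 background and the only mutant line here. AVP1 encodes a pyrophosphatase that pumps protons into the vacuole. Col-0 is the wild type. All seedlings grew on agar-solidified Yamagami medium with sucrose under long days, and the labels do not give the hour at which shoots were collected. In such bulk samples fewer cells of a type and less RNA per cell cannot be told apart.

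CP29 binds chlorophylls and xanthophylls and sits between the trimeric light-harvesting complexes and the photosystem II core, where it passes excitation energy inward and takes part in photoprotection. In Arabidopsis LHCB4.1 and LHCB4.2 encode closely similar CP29 proteins. LHCB4.3 encodes a form with a shortened C-terminal part, and it is known for induction in plants kept in strong light. Transcripts of antenna genes follow the clock, light and the state of the chloroplast. No protein or promoter sequence is printed here.

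The deposited values are probe set signals on a linear scale, and signals of different probe sets are not set against each other as levels. The mean signal of an array, without the highest and lowest 2% of its probe sets, lay between 495.1 and 495.7. The highest single signal was lower on the lcs7 arrays at 0.3 mM calcium, from 26066.2 to 27056.0, than on the other arrays, from 30155.4 to 34591.8. A listed gene is called measured here only if a probe set names it alone in the annotation used, as 13513 of 22746 probe sets do for some gene. That held for 16 of 100 genes listed by locus, and the others may be on the array without such a name. Both measured green-shoot markers of the list of 7, the Rubisco activase gene RCA and the phosphoribulokinase gene PRK, were bright on all arrays, with summed signals of at least 29140.5. Of the 6 root markers listed, 2 were measured, and their values are given with those of LHCB4.3. Col-0 replicates 2 and 3 at 0.3 mM calcium stood apart from replicate 1. Over 11 genes whose lcs7 arrays all lay at least 8-fold above every Col-0 array at 2 mM, at signals of at least 300, their median place was 25.5 and 37.2% and that of replicate 1 was -0.06%, with the mean of Col-0 at 2 mM set to 0 and that of lcs7 at 0.3 mM to 100%. The genes were picked on these arrays, and values without replicates 2 and 3 are given where a call or a direction changed. For LHCB4.2 and LHCB4.3 themselves replicate 1 lay nearest to lcs7 at 0.3 mM on this scale. It stood at 117.8% for LHCB4.2, against -9.2 and 38.0% in replicates 2 and 3. For LHCB4.3 it stood at 73.2%, against 41.2 and 47.6%.

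LHCB4.2 was highest in lcs7 at 2 mM calcium and lowest in lcs7 at 0.3 mM calcium. Its signals were 4392.5, 4691.4 and 4576.2 in lcs7 at 0.3 mM calcium, against 4137.0, 8189.8 and 6351.7 in Col-0 at 0.3 mM calcium. They were 14129.8, 17690.2 and 14840.8 in lcs7 at 2 mM calcium, against 7776.8, 8189.5 and 7430.5 in Col-0 at 2 mM calcium. At 2 mM every lcs7 array lay above every Col-0 array, while at 0.3 mM the lcs7 arrays lay within the range of the Col-0 arrays. The geometric means were 4552, 5993, 15480 and 7793 in the same order of groups. From high to low the order was lcs7 at 2 mM, Col-0 at 2 mM, Col-0 at 0.3 mM and lcs7 at 0.3 mM. Both Col-0 groups overlapped with each other, and so did both groups at 0.3 mM.

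LHCB4.3 was highest in lcs7 at 0.3 mM calcium and lowest in Col-0 at 2 mM calcium. Its signals were 3099.9, 3490.7 and 3349.6 in lcs7 at 0.3 mM calcium, against 2401.1, 1639.1 and 1769.4 in Col-0 at 0.3 mM calcium. They were 1919.3, 1373.6 and 1165.2 in lcs7 at 2 mM calcium, against 962.0, 1056.9 and 986.4 in Col-0 at 2 mM calcium. The lcs7 arrays lay above the Col-0 arrays at each calcium level, and the 0.3 mM arrays lay above the 2 mM arrays in each line. The geometric means were 3309, 1910, 1454 and 1001. In this order of levels only Col-0 at 0.3 mM and lcs7 at 2 mM overlapped with each other.

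**Figure D1:**
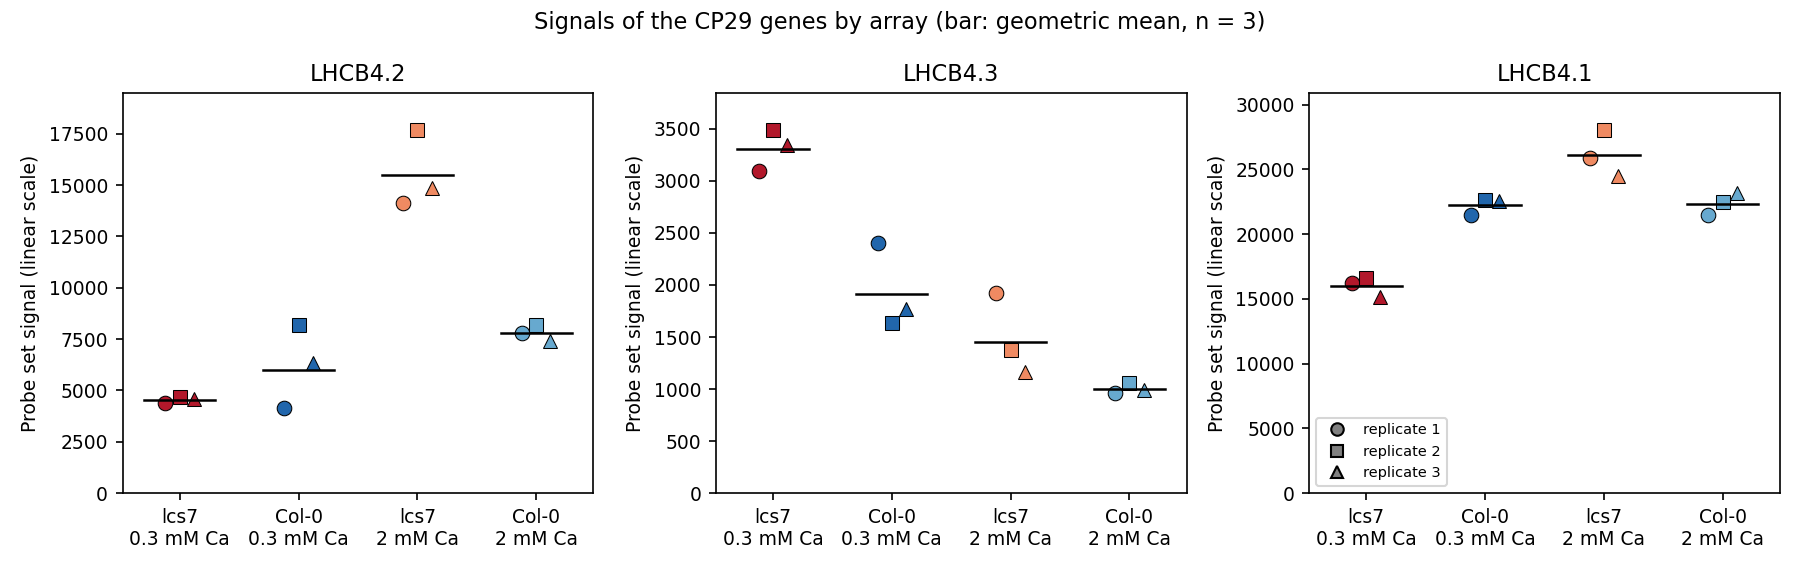
Probe set signal on a linear axis for LHCB4.2, LHCB4.3 and LHCB4.1, with 1 point per array shaped by replicate number and a bar at the geometric mean of 3 arrays. LHCB4.2 is highest in lcs7 at 2 mM calcium (geometric mean 15480) and LHCB4.3 in lcs7 at 0.3 mM calcium (3309), and LHCB4.2 spans from 4137.0 to 8189.8 in Col-0 at 0.3 mM calcium.

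In lcs7 the response to low calcium was opposed between these genes. LHCB4.2 was lower at 0.3 than at 2 mM calcium by a log2 difference of -1.77 ± 0.21 (SE, n = 3 arrays per group), a 3.40-fold lower level. LHCB4.3 was higher by 1.19 ± 0.20, which is 2.28-fold. Neither gene overlapped between the calcium levels, which was so for 41.7% of all genes. Over all genes 2.49% had a lower difference than LHCB4.2 and 7.26% a higher one than LHCB4.3.

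In Col-0 the same comparison was opposed in the means, and LHCB4.2 overlapped. LHCB4.2 differed by -0.38 ± 0.21 and LHCB4.3 by 0.93 ± 0.20 on the log2 scale between 0.3 and 2 mM calcium. For LHCB4.2, Col-0 replicate 2 at 0.3 mM calcium (8189.8) was as high as the highest array at 2 mM (8189.5), and replicate 1 at 0.3 mM (4137.0) was the lowest of all 12 arrays. Its difference was -0.11 without replicate 1, -0.60 without replicate 2 and -0.42 without replicate 3 of Col-0 at 0.3 mM. LHCB4.3 did not overlap, like 22.3% of all genes, and leaving out 1 array gave from 0.77 to 1.04. Without replicates 2 and 3, with 1 Col-0 array left at 0.3 mM, LHCB4.2 differed by -0.91 and LHCB4.3 by 1.26.

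Between the lines the genes differed in the same direction at 2 mM calcium and in opposite directions, in the means, at 0.3 mM. At 0.3 mM calcium lcs7 minus Col-0 was -0.40 ± 0.21 for LHCB4.2 and 0.79 ± 0.20 for LHCB4.3 (log2, SE). LHCB4.2 overlapped there and LHCB4.3 did not, and 35.7% of all genes did not either. At 2 mM calcium lcs7 minus Col-0 was 0.99 ± 0.21 for LHCB4.2, a 1.99-fold higher level, and 0.54 ± 0.20 for LHCB4.3, which is 1.45-fold. Neither overlapped at 2 mM, as in 21.4% of all genes. The difference of LHCB4.2 at 0.3 mM was -0.66 without Col-0 replicate 1, -0.17 without Col-0 replicate 2 and 0.14 without both Col-0 replicates 2 and 3, so its sign rests on which Col-0 arrays are used. The difference of LHCB4.3 at 2 mM was 0.34 without lcs7 replicate 1, the array with the highest signal of that group.

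The comparisons share arrays: each group serves in a genotype and in a calcium comparison. The genotype difference at 0.3 mM minus that at 2 mM was -1.39 ± 0.30 for LHCB4.2 and 0.25 ± 0.28 for LHCB4.3 on the log2 scale. For LHCB4.3 the second value was smaller than its SE. It ranged from 0.10 without lcs7 replicate 3 at 2 mM to 0.46 without lcs7 replicate 1 at 2 mM.

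**Figure D2:**
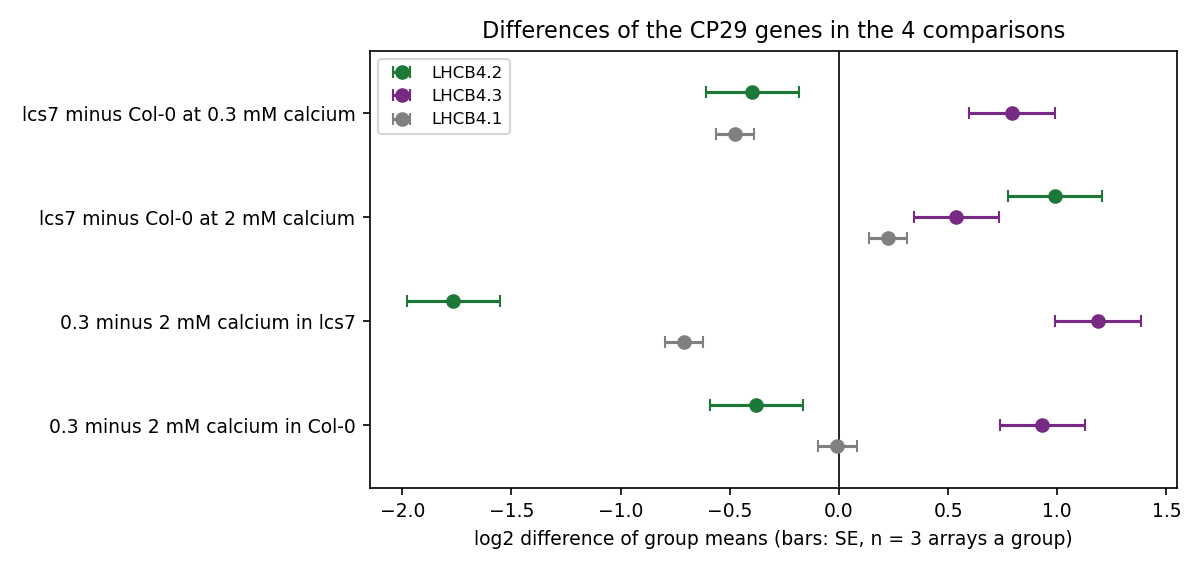
Log2 difference of group means with its SE (3 arrays per group) for LHCB4.2, LHCB4.3 and LHCB4.1 in the 4 comparisons, lcs7 minus Col-0 or 0.3 minus 2 mM calcium. LHCB4.3 lies above 0 in all 4 (0.54 to 1.19), while LHCB4.2 runs from -1.77 to 0.99.

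The ratio of LHCB4.3 to LHCB4.2 within an array is not changed by a factor common to all probe sets of that array. Relative to its mean in Col-0 at 2 mM calcium, the log2 ratio was 2.46, 2.53 and 2.51 in lcs7 at 0.3 mM and 2.18, 0.64 and 1.12 in Col-0 at 0.3 mM. It was 0.08, -0.73 and -0.71 in lcs7 at 2 mM and -0.05, 0.01 and 0.05 in Col-0 at 2 mM. The ratio thus stood 5.66-fold above the Col-0 level at 2 mM in lcs7 at 0.3 mM and 2.48-fold above it in Col-0 at 0.3 mM. All 6 arrays at 0.3 mM lay above all 6 arrays at 2 mM, and the lcs7 arrays at 0.3 mM lay closest together (SD 0.04, n = 3) against an SD of 0.79 in Col-0 at 0.3 mM (n = 3). Quantile normalization, which rescales bright and dim signals differently, gave a smaller difference of the log2 ratio for 0.3 against 2 mM calcium in lcs7, 2.76 in place of 2.95. For lcs7 against Col-0 at 2 mM it gave -0.33 in place of -0.45.

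**Figure D3:**
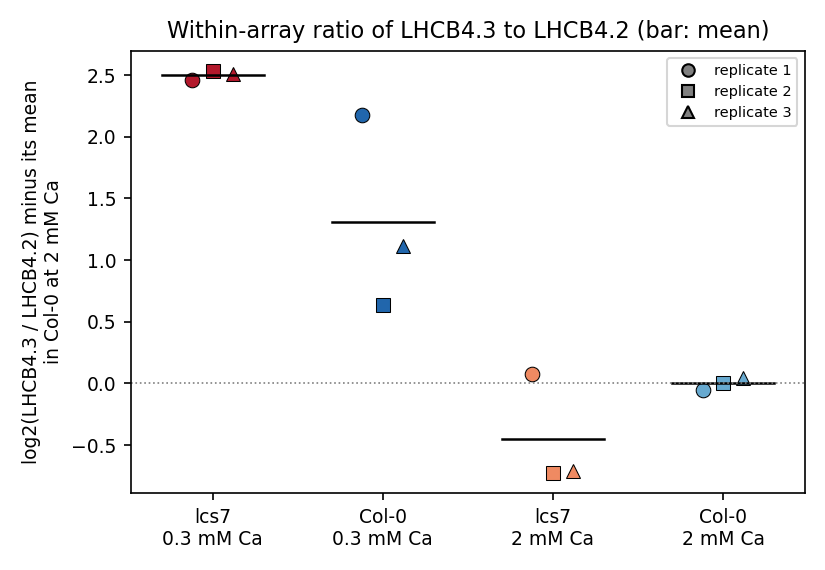
Log2 ratio of the LHCB4.3 signal to the LHCB4.2 signal within each array, minus its mean in Col-0 at 2 mM calcium, with bars at the means of 3 arrays. The lcs7 arrays at 0.3 mM calcium lie between 2.46 and 2.53, and the Col-0 arrays at 0.3 mM spread from 0.64 to 2.18.

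Pooled over the groups, both genes varied more than most within groups, but not in every group. The pooled SD of log2 signal within groups was 0.27 for LHCB4.2 and 0.24 for LHCB4.3, above the SD of 81.5% and 75.7% of the 7337 genes with a mean signal of at least 100. The median pooled SD of those genes was 0.17. In lcs7 at 0.3 mM and Col-0 at 2 mM the SDs of both genes were lower, from 0.05 to 0.09. The highest SD of LHCB4.3 was 0.37, in lcs7 at 2 mM. In Col-0 at 0.3 mM calcium alone the SD was 0.50 for LHCB4.2 and 0.29 for LHCB4.3. In that group the order of the arrays was reversed between the genes: replicate 1 was lowest for LHCB4.2 and highest for LHCB4.3, and replicate 2 was highest for LHCB4.2 and lowest for LHCB4.3. In lcs7 at 0.3 mM the arrays had the same order for both genes.

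The evening gene GIGANTEA (GI), the 1 measured gene of the 9 clock genes listed, is given here because its arrays were ordered like those of LHCB4.2 in part. Its signals were 647.7, 692.0 and 617.1 in lcs7 at 0.3 mM calcium, against 135.5, 514.2 and 371.3 in Col-0 at 0.3 mM calcium. They were 713.8, 934.5 and 820.1 in lcs7 at 2 mM, against 530.8, 321.5 and 321.7 in Col-0 at 2 mM. The arrays of Col-0 at 0.3 mM and of lcs7 at 2 mM had the same order for GI as for LHCB4.2, whereas the other groups did not. LHCB4.1 had this order too in Col-0 at 0.3 mM, and in lcs7 at 0.3 mM it had the order of GI. The match is on the arrays it was seen on, and 3 arrays have few possible orders. Between the lines at 0.3 mM GI and LHCB4.2 differed in opposite directions in the means. GI was higher in lcs7 at both calcium levels, by 1.14 ± 0.42 at 0.3 mM (limma adjusted p = 0.103) and 1.11 ± 0.42 at 2 mM (limma adjusted p = 0.252), and neither passed the threshold of an adjusted p under 0.05. Without Col-0 replicates 2 and 3 the difference at 0.3 mM was 2.27, resting on 1 Col-0 array, the one with the lowest GI signal (135.5). Without replicate 2 alone the difference of GI was 1.54 (limma adjusted p = 0.0401). It also passed at 0.3 mM with an offset of 50, without the dimmest genes and with an intensity trend (limma adjusted p from 0.0361 to 0.0487). At 2 mM it passed without Col-0 replicate 1 at 0.3 mM (limma adjusted p = 0.0373) and without Col-0 replicates 2 and 3 at 0.3 mM (limma adjusted p = 0.0456). The part of the clock or of the hour of collection in the values of LHCB4.2 was not tested.

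Of both measured root markers, PYK10 rose in 3 of the 4 comparisons and was higher, without passing, in the fourth, as LHCB4.3 was higher in all 4. PYK10, a beta-glucosidase abundant in roots and hypocotyls, had signals of 6131.3, 4473.1 and 7032.8 in lcs7 at 0.3 mM calcium, against 1350.5, 1596.3 and 1656.8 in Col-0 at 0.3 mM calcium. It had 2468.6, 2994.4 and 2575.6 in lcs7 at 2 mM, against 1037.7, 907.0 and 1012.1 in Col-0 at 2 mM. It rose in lcs7 against Col-0 by 1.92 ± 0.17 at 0.3 mM (limma adjusted p = 0.000314) and by 1.44 ± 0.17 at 2 mM (limma adjusted p = 0.00491), and at low calcium in lcs7 by 1.11 ± 0.17 (limma adjusted p = 0.00189). At low calcium in Col-0 it was higher by 0.64 ± 0.17 with no overlap of the groups (limma adjusted p = 0.111), and it passed there without the dimmest genes (limma adjusted p = 0.0352) and with an intensity trend (limma adjusted p = 0.0232). Its order of groups differed from that of LHCB4.3, since lcs7 at 2 mM stood above Col-0 at 0.3 mM. The summed signal of both measured root markers ran from 4486.2 to 7054.2 in lcs7 at 0.3 mM, from 1371.6 to 1665.2 in Col-0 at 0.3 mM, from 2502.1 to 3029.8 in lcs7 at 2 mM and from 925.7 to 1064.1 in Col-0 at 2 mM. The root-hair expansin gene EXPA7 was near background, between 7.0 and 45.1 on all arrays, so these sums are almost all PYK10. EXPA7 did not go with PYK10 in every comparison. It differed by -0.90 ± 0.64 for low calcium in lcs7, with no overlap, and by -0.01 ± 0.64 between the lines at 0.3 mM. It was higher by 1.29 ± 0.64 in lcs7 at 2 mM and by 0.40 ± 0.64 at low calcium in Col-0. None of these passed (limma adjusted p from 0.368 to 0.993). The part of root or hypocotyl tissue in the LHCB4.3 values was not tested.

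LHCB4.1, the other CP29 gene, was the only further one of the 21 light-harvesting genes listed with a probe set naming it alone. Unlike LHCB4.2 and LHCB4.3 it was tested, but its list was also written with earlier results of these data known. Its signals were 16195.6, 16587.2 and 15168.8 in lcs7 at 0.3 mM calcium, against 21515.2, 22643.4 and 22566.6 in Col-0 at 0.3 mM calcium. They were 25842.9, 28052.5 and 24495.3 in lcs7 at 2 mM, against 21459.4, 22449.7 and 23148.5 in Col-0 at 2 mM. It fell at 0.3 mM in lcs7, by -0.71 ± 0.09 against lcs7 at 2 mM (limma adjusted p = 0.0007) and by -0.48 ± 0.09 against Col-0 at 0.3 mM (limma adjusted p = 0.00615). At 2 mM it was higher in lcs7 by 0.22 ± 0.09, which did not pass (limma adjusted p = 0.259), and the Col-0 groups differed by -0.01 ± 0.09. At most 0.207% of the probe sets of any array were brighter than LHCB4.1, at most 3.34% brighter than LHCB4.2 and at most 16.1% brighter than LHCB4.3. With quantile normalization, which sets the brightest signals of all arrays equal, the falls of LHCB4.1 were -0.24 (limma adjusted p = 0.0667) and -0.12 (limma adjusted p = 0.383), and neither passed. LHCB4.2 and LHCB4.3 were less affected, with -1.54 and 1.22 for 0.3 against 2 mM in lcs7.

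The measured nuclear photosystem subunits were lower in lcs7 at 0.3 mM calcium, and none of them rose there with LHCB4.3. LHCB4.2 fell with them against lcs7 at 2 mM calcium. Against Col-0 at 0.3 mM LHCB4.2 overlapped (-0.40), and its sign there rests on which Col-0 arrays are used. Of 24 listed subunits 5 were measured: PSBW and PSBY, small subunits of photosystem II, PSB27, which acts in its assembly and repair, and PSAE-1 and PSAN, peripheral subunits of photosystem I. With LHCB4.1 they make 6 antenna and photosystem genes besides LHCB4.2 and LHCB4.3. Their lists were written with earlier results of these data known, so the counts of calls among the 6 are not independent support. For lcs7 against Col-0 at 0.3 mM calcium limma called all 6 of 6 lower, where 16.8% of all genes were called and 9.8% were called lower, and the median log2 difference was -0.60 against -0.05 over all genes. PSBY differed by -0.70 ± 0.09 (limma adjusted p = 0.00157), PSAN by -0.69 ± 0.13, PSB27 by -0.66 ± 0.13, PSAE-1 by -0.53 ± 0.09 and PSBW by -0.47 ± 0.12. With quantile normalization 3 of 6 were called (PSAN, PSBY and PSB27), and without Col-0 replicates 2 and 3 only PSBY was. PSBW did not pass without Col-0 replicate 2 or any 1 of the lcs7 arrays at 0.3 mM. The green-shoot markers fell too, RCA by -0.41 ± 0.09 (limma adjusted p = 0.0121) and PRK by -0.54 ± 0.11 (limma adjusted p = 0.0101). With quantile normalization RCA differed by -0.02 (limma adjusted p = 0.884) and PRK by -0.27 (limma adjusted p = 0.0925). Neither passed without Col-0 replicates 2 and 3 (limma adjusted p = 0.0788 for RCA and 0.162 for PRK), and RCA did not with only the compared groups (limma adjusted p = 0.0675). Their summed signals ran from 29140.5 to 30775.2 in lcs7 at 0.3 mM and from 39515.6 to 42889.5 in Col-0 at 0.3 mM, and the part of green tissue in these falls was not tested.

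For 0.3 against 2 mM calcium in lcs7 limma again called all 6 of 6 lower, where 21.8% of all genes were called and 11.8% were called lower. PSB27 fell most, by -1.13 ± 0.13 (limma adjusted p = 0.000499), followed by PSAN at -1.05 ± 0.13, and the median of the 6 was -0.74 against -0.05 over all genes. Centring each array on its median shifted the median of all genes in this comparison to -0.17, and all 6 calls were lower there too. With quantile normalization 4 of 6 were called, without LHCB4.1 (limma adjusted p = 0.0667) and PSAE-1 (-0.13, limma adjusted p = 0.242). That centring gave 1043 higher and 2196 lower calls over all genes, against 1342 higher and 1573 lower without it. Between the lines at 0.3 mM it gave 790 and 1659, against 934 and 1309. For the interaction it gave 104 and 238, against 130 and 178. The summed green-shoot markers ran from 29140.5 to 30775.2 in lcs7 at 0.3 mM and from 40503.1 to 46355.2 in lcs7 at 2 mM.

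At 2 mM calcium limma called 0 of the 6 genes between the lines, with 1, LHCB4.1, higher at an unadjusted p under 0.05. There 2.75% of all genes were called. In Col-0, between 0.3 and 2 mM calcium, limma also called 0 of 6, with 1, PSB27, lower at an unadjusted p under 0.05, and 0.307% of all genes were called. PSB27 differed there by -0.39 ± 0.13. The interaction was called for 3 of 6 genes, all negative, namely LHCB4.1 (-0.70 ± 0.12, limma adjusted p = 0.0248), PSBY and PSAN, where 2.31% of all genes were called. That count was 0 without Col-0 replicate 1 or 3 at 2 mM, Col-0 replicate 2 at 0.3 mM or any of the 3 lcs7 arrays at 0.3 mM. It was 1 without Col-0 replicate 2 or lcs7 replicate 1 or 2 at 2 mM, or Col-0 replicate 3 at 0.3 mM. With the replicate number as a block it was 0.

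**Figure D4:**
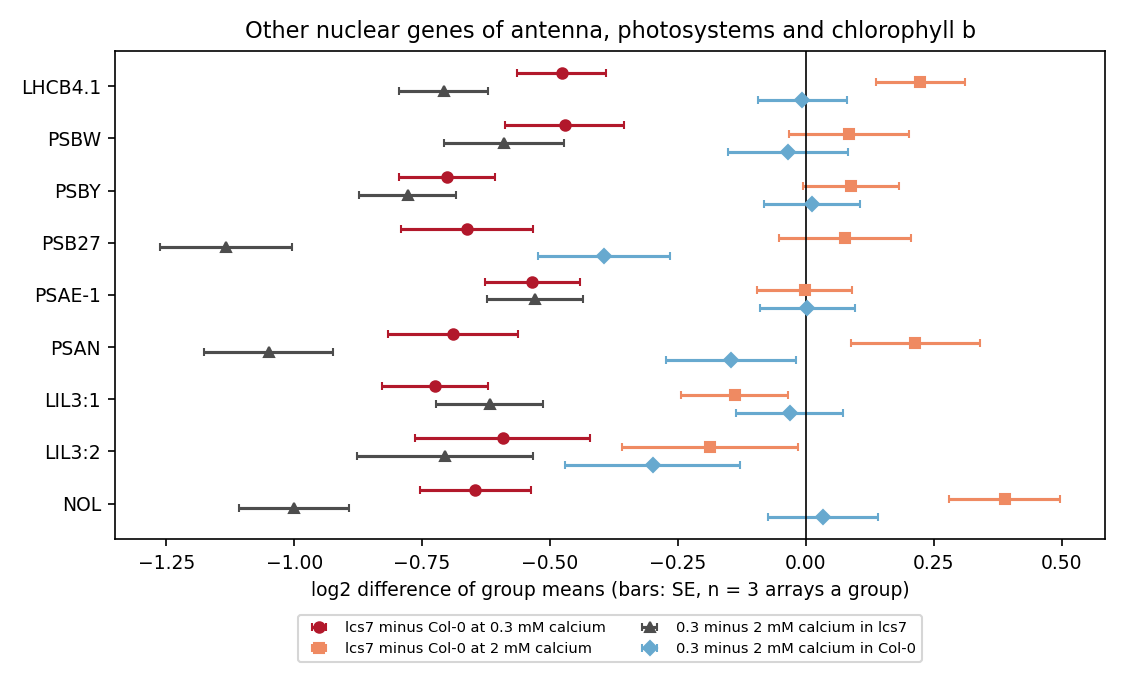
Log2 difference of group means with its SE (3 arrays per group) in the 4 comparisons for the measured antenna and photosystem genes other than LHCB4.2 and LHCB4.3, and for LIL3:1, LIL3:2 and NOL. Both comparisons that have lcs7 at 0.3 mM calcium lie below 0 for all 9 genes, from -1.13 for PSB27 to -0.47 for PSBW.

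Measured genes of chlorophyll metabolism fell in lcs7 at 0.3 mM calcium. LIL3:1 and LIL3:2, light-harvesting-like proteins that act with geranylgeranyl reductase in chlorophyll synthesis, were 2 measured of 15 genes listed for photoprotection and light stress. LIL3:1 fell in lcs7 at 0.3 mM by -0.72 ± 0.10 against Col-0 (limma adjusted p = 0.00203), and LIL3:2 by -0.59 ± 0.17 (limma adjusted p = 0.0433). LIL3:2 passed in 3 of 12 fits without 1 array, those without Col-0 replicate 1 or 2 at 2 mM or Col-0 replicate 3 at 0.3 mM. NOL, a subunit of chlorophyll b reductase, the 1 measured of 4 genes listed for chlorophyll b, fell by -0.65 ± 0.11 (limma adjusted p = 0.00409). Its signals were 574.7, 582.8 and 611.5 in lcs7 at 0.3 mM, against 857.5, 1045.0 and 875.3 in Col-0 at 0.3 mM. They were 1176.3, 1213.2 and 1148.4 in lcs7 at 2 mM, against 807.3, 946.8 and 955.9 in Col-0 at 2 mM. Its group means had the same highest and lowest group as LHCB4.2, and so had those of LHCB4.1, PSAN, PSBW, PSBY, PSB27 and RCA. Several plastid-encoded genes had them too, such as psbE and psbF. At 2 mM the lines overlapped for PSBW, PSBY, PSB27 and RCA, with differences from 0.06 to 0.09, so their highest group is not settled. None of the genes named here was called between the lines at 2 mM. The share of all genes with this highest and lowest group was not counted. The interaction of NOL was -1.03 ± 0.15 (limma adjusted p = 0.0178, and 0.0509 without lcs7 replicate 3 at 0.3 mM). Without Col-0 replicates 2 and 3 at 0.3 mM the interaction of NOL did not pass (limma adjusted p = 0.0945). In that fit LIL3:1, LIL3:2 and NOL did not pass at 0.3 mM (limma adjusted p from 0.0539 to 0.0781). None of the listed genes for import and insertion of antenna proteins (5), their kinases and phosphatases (4) or the transcription of antenna genes (5) was measured under a name.

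The core to which CP29 binds is in part encoded in the plastid, and a list of these genes was written after the annotation was seen. Of 15 plastid-encoded photosystem II (psb) genes limma called 8 lower and 0 higher for 0.3 against 2 mM calcium in lcs7. There 21.8% of all genes were called and 11.8% were called lower. Among them were psbB, the CP47 core antenna, at -1.30 ± 0.28 (limma adjusted p = 0.00986) and psbA, the D1 protein, at -0.90 ± 0.12 (limma adjusted p = 0.0011). The median of the 15 was -0.72. In Col-0 limma called 0 of 15 between the calcium levels, with 9 lower at an unadjusted p under 0.05 and a median of -0.55. Over all genes 0.307% were called there, and 10 of 15 did not overlap, against 22.3% of all genes. The interaction was called for 0 of 15, with a median of -0.18, where 2.31% of all genes were called. For lcs7 against Col-0 at 0.3 mM limma called 0 of 15, with 4 lower at an unadjusted p under 0.05. There 16.8% of all genes were called. Of 4 genes listed for photosystem II assembly 3 fell in lcs7 at 0.3 mM against Col-0, where 9.8% of all genes were called lower. LPA2 fell most (-1.04 ± 0.11, limma adjusted p = 0.000677). With 5 plastid-encoded photosystem I subunits these lists hold 24 genes, of which 15 were called for low calcium in lcs7, and 9 without lcs7 replicate 1 at 2 mM or lcs7 replicate 1 at 0.3 mM. Between the lines at 0.3 mM 4 of the 24 were called, a share near the 16.8% of all genes, with 2 called without lcs7 replicate 2 at 0.3 mM and 1 called without Col-0 replicates 2 and 3.

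The genes most like LHCB4.2 and LHCB4.3 were sought by the root mean square difference of log2 signals, each centred on the gene's mean over the 12 arrays, among 7336 other genes with a mean signal of at least 100. The 5 nearest to LHCB4.2 were AT5G44020 (0.28 on the log2 scale), AT1G12730 (0.31), COR27 (0.32), AT1G12845 (0.32) and AT5G19940 (0.32), while the median gene lay at 0.72. COR27 is a cold-regulated gene whose product acts in the clock. AT5G44020 had signals of 4913.4, 4489.5 and 5090.9 in lcs7 at 0.3 mM, against 3792.5, 5569.5 and 6017.7 in Col-0 at 0.3 mM, and of 9842.7, 12691.1 and 10613.0 in lcs7 at 2 mM, against 5900.0, 6984.7 and 8851.5 in Col-0 at 2 mM. The 5 nearest to LHCB4.3 were AT1G78210 (0.20), AT5G47060 (0.22), AT3G60450 (0.22), AT4G17720 (0.23) and AT3G46540 (0.23), with a median gene at 0.71. AT1G78210 stood 1.31 above its Col-0 level at 2 mM in lcs7 at 0.3 mM, 0.66 in Col-0 at 0.3 mM and 0.29 in lcs7 at 2 mM on the log2 scale, and LHCB4.3 stood 1.73, 0.93 and 0.54 above its own. LHCB4.1 lay at 0.49 from LHCB4.2 and at 0.87 from LHCB4.3, and LHCB4.2 and LHCB4.3 lay 1.22 apart. The points share array scaling and the 4 groups. With quantile normalization 1 of the 5 nearest to LHCB4.2 and 3 of the 5 nearest to LHCB4.3 stayed among the first 5, and all did with median centring.

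**Figure D5:**
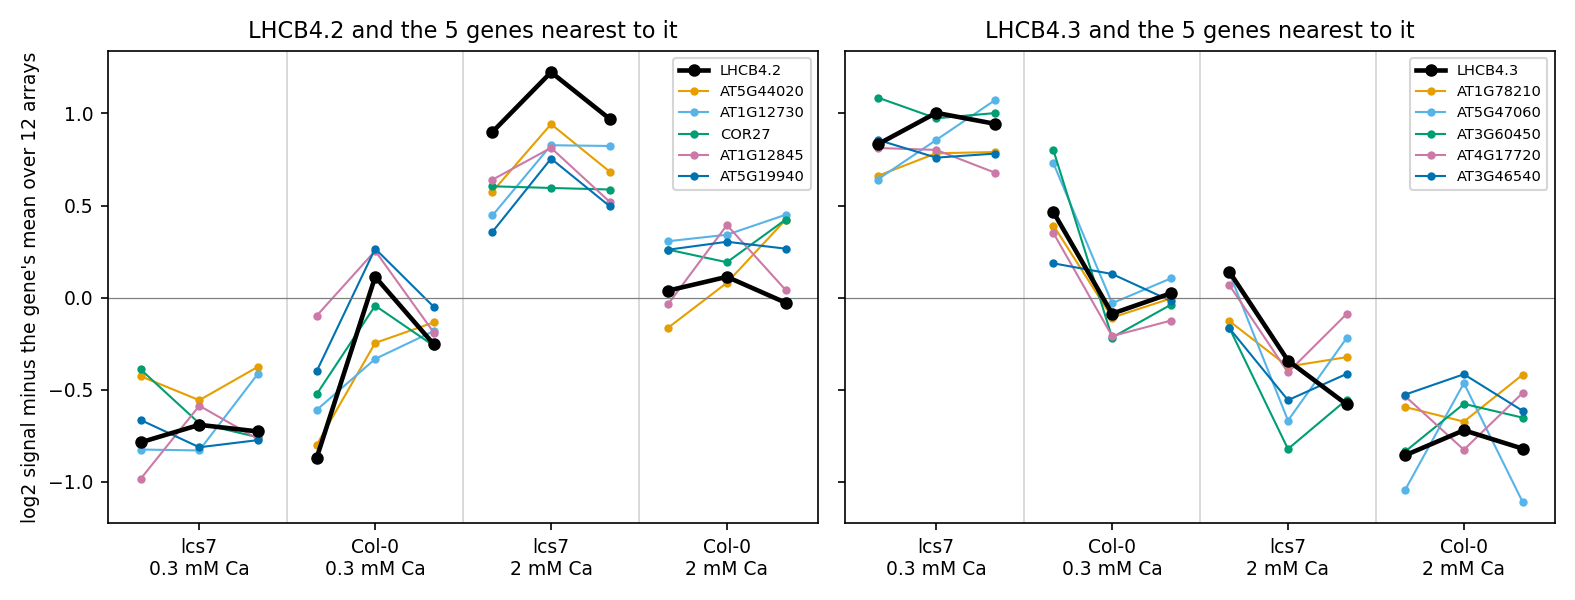
Log2 signal minus the gene's mean over the 12 arrays, for LHCB4.2 (left) and LHCB4.3 (right) in black and the 5 genes nearest to each in colour, with the 3 arrays of a group side by side. Lines join arrays of a group only to guide the eye, and LHCB4.2 and LHCB4.3 lie 1.22 apart by the measure used.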

How the data were processed

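The deposited table holds intensity values per probe set on a linear scale, with a floor of 0.1. RMA and oligo 1.32.0 are named in the submitters' processing notes. RMA gives log2 values with equal quantiles on all arrays, and the deposited intensity values have neither, so the probe summary used is not settled. Here log2 was taken of each signal without an offset. Of 22746 probe sets, 13513 name 1 gene, and the brightest probe set of each gene was kept, which left 13356 genes. Arrays give no read depth, and 3 arrays per group limit the precision.

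limma 3.58.1 in R 4.3.3 was fitted with 1 mean per group over all 12 arrays, using eBayes and 2-sided tests. P-values were adjusted over all genes by Benjamini-Hochberg, with 0.05 as the limit for a call. SEs are those of this fit. Python 3.11.15 was used for tables and plots, and the fit was tested on simulated data.

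LHCB4.2, LHCB4.3 and all lists were chosen with earlier results of these data known. Of 100 genes listed by locus, 16 were measured under a name. The text names these, the 5 genes nearest to each of LHCB4.2 and LHCB4.3, and, chosen after the values were seen, members of the plastid-encoded and assembly lists. Groups came from the labels alone, and same-numbered arrays were not found to be paired. Alternatives were other scalings, an offset of 50, leaving out the 40% dimmest genes, all probe sets, other moderation, array weights, only the compared groups, a replicate block and arrays left out. Those of the plastid-encoded and assembly lists, of the nearest genes and of the ratio were chosen after the data were seen.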

Additional observations from a re-analysis of the deposited data

Results flagged for a closer look

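The genotype difference of LHCB4.2 changed direction with calcium: each lcs7 array lay below the Col-0 mean at 0.3 mM and above it at 2 mM, and the difference between these effects was -1.39 on the log2 scale. It was not tested, because the gene was chosen with this contrast known. Among the listed genes the interaction test called LHCB4.1 (-0.70), PSAN (-0.90), PSBY (-0.79), NOL (-1.03) and LPA2 (-0.80). Each had lcs7 lower relative to Col-0 at 0.3 mM than at 2 mM. Over all genes 2.31% were called for the interaction. LPA2 did not pass when any array other than Col-0 replicate 1 at 0.3 mM was left out. Without Col-0 replicates 2 and 3 at 0.3 mM none of these 5 passed. The direction of LHCB4.2 at 0.3 mM turned (0.14) without Col-0 replicates 2 and 3.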

How the results depend on the processing

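Without 1 array the LHCB4.2 difference ranged from -0.66 to -0.17 for lcs7 against Col-0 at 0.3 mM calcium, from 0.89 to 1.06 at 2 mM, from -1.83 to -1.67 for low calcium in lcs7, from -0.60 to -0.11 in Col-0 and from -1.65 to -1.16 for the interaction. For LHCB4.3 the ranges were 0.68 to 0.96, 0.34 to 0.70, 1.03 to 1.39, 0.77 to 1.04 and 0.10 to 0.46. The count of called antenna and photosystem genes ranged from 5 to 6, 0 to 0, 6 to 6, 0 to 0 and 0 to 3. Without Col-0 replicates 2 and 3 at 0.3 mM, LHCB4.2 was 0.14 between the lines at 0.3 mM, -0.91 for calcium in Col-0 and -0.85 for the interaction, LHCB4.3 was 0.46, 1.26 and -0.075, and the counts were 1 between the lines at 0.3 mM and 0 for the interaction, taking for the 1 Col-0 array left the spread of the other groups. Quantile normalization gave -1.54 for LHCB4.2 at low calcium in lcs7, counts of 3 between the lines at 0.3 mM and 1 for the interaction, and 0.0037 for RCA at low calcium in lcs7, whose main value was -0.47. The interaction count was 5 with an offset of 50, 6 without the dimmest genes and 0 with the replicate block. The causes were not tested. Same-numbered arrays of different groups did not deviate together (correlations from -0.04 to 0.05 across genes, 18 pairs), and 5 of 12 arrays correlated best with one of their own number. Beside the interaction calls of LHCB4.1, PSAN, PSBY and LPA2, the replicate block ended the call of LIL3:2 between the lines at 0.3 mM (limma adjusted p = 0.0724) and no other call of the genes listed by locus. A fit with only the compared groups gives no interaction. Of the 24 plastid-encoded and assembly genes, 0 were called for low calcium in Col-0 and 4 between the lines at 0.3 mM. These counts were 4 and 7 without the dimmest genes, where 665 and 2744 of 8014 genes were called. They were 3 and 7 with an intensity trend, where 721 and 2773 of 13356 were called, against 41 and 2243 in the fit without it.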
